A study of Mus musculus with 4 samples.

Results

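Accessible chromatin around 9 genes of fibroblast growth factor (FGF) signalling was described in the embryonic mouse limb. The genes were the ligand gene Fgf10, the receptor genes Fgfr1 and Fgfr2, the inhibitor genes Spry1, Spry2, Spry4 and Dusp6, and the target genes Etv4 and Etv5. The regions were those of 2 deposited peak lists that overlapped the interval of 100 kb on either side of a gene's transcription start site on the mouse genome build mm10, so that position alone selected them. There were 173 such regions among 99356 in the E10.5 list and 60 among 37413 in the E11.5 list, where E stands for embryonic day. A region within 1 kb of the start site was called a promoter region and the others distal.

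The data came from ATAC-seq, in which the Tn5 transposase inserts adaptors where DNA is accessible. The 4 samples were pools of fore- and hindlimb cells of wild-type embryos, 2 of each stage, and all were dissociated with trypsin and fixed before lysis. The titles name the earlier stage E10.5 and the treatment protocol names it E10. Strain, sex and the number of embryos per sample were not given in the sources used here. Each list joined both replicates of its stage, so no value below has a replicate check, no difference between the lists was tested, and the depth of each sample is unknown. In limb tissue that mixes cell types, fewer cells with a region open and less accessibility per cell cannot be told apart.

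FGF signalling links the layers of the limb bud. Fgf10 is made by the limb mesenchyme and acts on the ectoderm through an epithelial splice form of Fgfr2, which leads to formation of the apical ridge, and FGFs of the ridge act back on the mesenchyme through Fgfr1 and other receptors. Receptor activity passes through RAS and ERK to transcription. Genes that ERK activity switches on include Etv4 and Etv5, which encode ETS transcription factors, and the genes of feedback inhibitors: the Sprouty proteins Spry1, Spry2 and Spry4, which dampen signalling below receptors, and Dusp6, a phosphatase that removes phosphate from ERK. ERK also inactivates the repressor Capicua, whose known targets include genes of the Etv4 subfamily.

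The promoter sequences of 6 of the 9 genes, with 7 start sites, were matched in a RefSeq table of build GRCm38.p6, which has the mm10 coordinates. The 5 printed here show the ligand promoter, and the inhibitor and target promoters that hold the searched words for ETS factors or Capicua or, for the outer start of Etv5, hold the summits of both lists. Each runs 5′ to 3′ along the gene from 250 bases before the start to 50 after it, at chr13:118714449-118714748 (plus strand) for Fgf10, chr14:105896770-105897069 (minus strand) for Spry2, chr10:99262981-99263280 (plus strand) for Dusp6, chr16:22439521-22439820 (minus strand) for the outer start of Etv5 and chr16:22438319-22438618 (minus strand) for its inner start, which lies 1202 bp downstream. Capitals mark each match to a searched word on either strand.
Fgf10: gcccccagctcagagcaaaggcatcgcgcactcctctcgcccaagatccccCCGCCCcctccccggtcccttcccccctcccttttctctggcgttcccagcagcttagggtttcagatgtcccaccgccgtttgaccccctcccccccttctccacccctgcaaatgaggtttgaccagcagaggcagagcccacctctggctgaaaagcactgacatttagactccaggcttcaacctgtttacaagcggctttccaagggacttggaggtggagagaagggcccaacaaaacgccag
Spry2: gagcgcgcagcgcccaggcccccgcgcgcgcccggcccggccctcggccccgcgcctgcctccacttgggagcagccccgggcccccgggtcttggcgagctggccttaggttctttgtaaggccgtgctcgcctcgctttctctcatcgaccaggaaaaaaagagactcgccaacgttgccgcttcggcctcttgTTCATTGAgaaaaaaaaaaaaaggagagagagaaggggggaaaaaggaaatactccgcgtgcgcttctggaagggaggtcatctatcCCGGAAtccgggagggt
Dusp6: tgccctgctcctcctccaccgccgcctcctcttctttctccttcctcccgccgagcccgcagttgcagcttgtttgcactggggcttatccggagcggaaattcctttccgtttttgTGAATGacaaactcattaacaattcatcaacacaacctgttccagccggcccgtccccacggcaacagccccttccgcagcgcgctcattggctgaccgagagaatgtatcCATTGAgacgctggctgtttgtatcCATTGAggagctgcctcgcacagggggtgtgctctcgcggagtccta
Etv5, outer start: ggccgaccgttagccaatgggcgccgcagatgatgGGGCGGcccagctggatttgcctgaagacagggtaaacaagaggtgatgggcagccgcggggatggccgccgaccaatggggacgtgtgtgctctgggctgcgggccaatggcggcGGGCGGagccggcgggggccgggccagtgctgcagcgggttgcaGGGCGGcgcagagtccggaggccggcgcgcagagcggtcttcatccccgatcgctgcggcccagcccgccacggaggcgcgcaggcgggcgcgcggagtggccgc
Etv5, inner start: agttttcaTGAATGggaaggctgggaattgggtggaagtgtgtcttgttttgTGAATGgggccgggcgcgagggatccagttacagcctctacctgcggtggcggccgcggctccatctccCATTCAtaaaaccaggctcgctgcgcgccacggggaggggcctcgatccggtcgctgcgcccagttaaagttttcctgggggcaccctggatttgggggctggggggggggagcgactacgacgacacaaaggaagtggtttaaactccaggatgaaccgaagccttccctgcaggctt
These windows were accessible in both lists, since a region covered all 300 bases of each of the 5 in the E10.5 list and in the E11.5 list.

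Words were searched on both strands. They were CCGGAA for a form of ETS site, TGAATGAA and TCAATGAA for Capicua, and TGACGTCA for the cyclic AMP response element. Other forms of ETS site were not searched. For the TATA box the word was TATAAA. For the GC box it was GGGCGG. The shorter words TGAATG and TCAATG, the cores of the Capicua words, were added after the sequences were seen. Spry2 held CCGGAA at 34 bases after the start and TCAATGAA, read on the opposite strand, at 54 bases before it. Of 32817 promoters of the table, 14.9% held CCGGAA and 0.75% held TCAATGAA. Dusp6 held TGAATG at 133 bases before the start and TCAATG on the opposite strand at 22 before it and at base 4 after it. The inner start of Etv5 held TGAATG at 242, 198 and 129 bases before it, the last on the opposite strand. Fgfr2, not printed, held TCAATG once, on the opposite strand at 145 bases before the start. At least 1 of these cores occurred in 19.9% of all promoters and at least 3 in 0.46%. The number 3 is the count found at Dusp6 and at the inner start of Etv5. Words and number thus follow what these promoters held, so 0.46% is no test of them. The outer start of Etv5 held none of the cores.

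GGGCGG was found 3 times at the outer start of Etv5 and once each at Fgf10 and Spry1, and in 35.6% of all promoters. TATAAA, which 13.6% of promoters hold, TGACGTCA, which 1.79% hold, and TGAATGAA, which 1.30% hold, were found at none of the 7 starts. A match is a stretch of letters and does not show that a factor binds there. The ratio of observed to expected CpG was 0.95 at Spry2, 0.94 at the outer and 0.73 at the inner start of Etv5, 0.93 at Spry1 and 0.80 at Dusp6. It was 0.39 at Fgf10 and 0.28 at Fgfr2, and the median over all promoters of the table was 0.38. The matched promoters of Spry1, Spry2, Dusp6 and Etv5 were thus richer in CpG than those of Fgf10 and Fgfr2. Fgfr1, Spry4 and Etv4 had no matched sequence, and no E11.5 region covered the Fgfr2 window.

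Every one of the 9 genes had 1 promoter region in the E10.5 list and 1 in the E11.5 list, and each pair overlapped. Of all promoter regions 86.0% in the E10.5 list and 98.8% in the E11.5 list overlapped the other list. Over 21536 protein-coding genes, 66.3% had a promoter region in the E10.5 list, 59.9% in the E11.5 list and 59.5% in both. Strength was read from the authors' signal value of a peak, which is a total over its width, as a rank or percentile within its own list. In the E10.5 list all 9 promoter regions lay above the 90th percentile of signal, against 42.6% of all promoter regions, with percentiles from 94.6 to 99.9. In the E11.5 list 4 of the 9 did, against 25.1%, with percentiles from 80.9 to 99.7. The strip plot of percentiles shows each promoter region above the distal regions of its window, except that the Gm5148 start in the window of Spry1 was above it in both lists and the Nsd3 and Letm2 starts in that of Fgfr1 were above it in the E11.5 list.

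**Figure D1:**
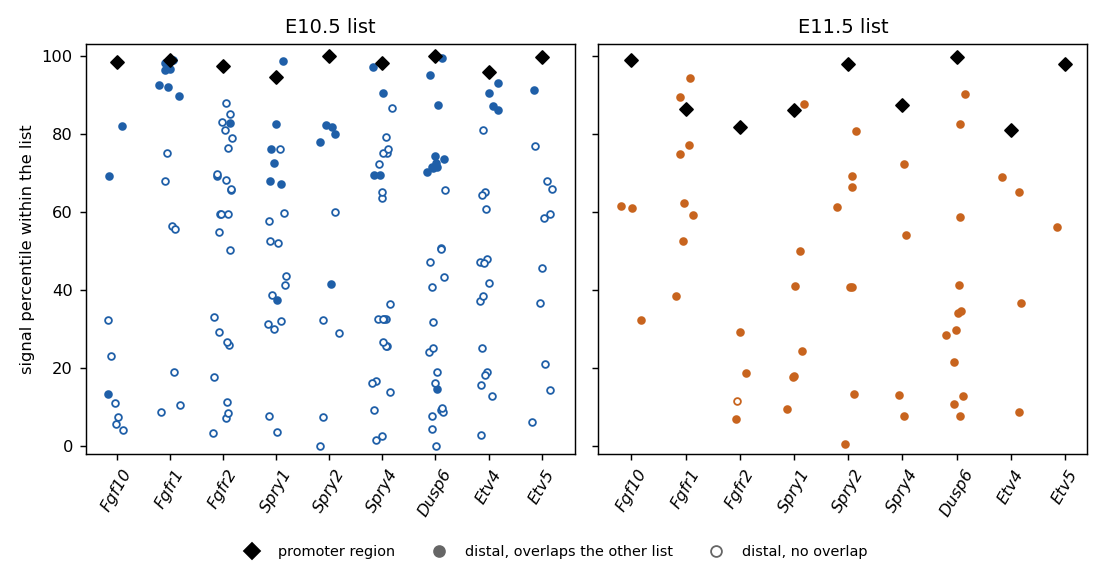
Signal percentile of each region within its own list (vertical axis) for the 9 genes, with the E10.5 list on the left and the E11.5 list on the right, where diamonds are promoter regions, filled circles are distal regions that overlap the other list and open circles are distal regions that do not. Promoter regions lie between 94.6 and 99.9 in the E10.5 list and between 80.9 and 99.7 in the E11.5 list.

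Fgf10, the mesenchymal ligand gene, occupies chromosome 13 from 118714699 to 118792573 (plus strand). Its promoter region spanned 118712982 to 118716891 in the E10.5 list, with a signal of 10791, rank 1493 and −log10 p of 9.04. In the E11.5 list it spanned 118713004 to 118716897, with a signal of 8720, rank 416 and −log10 p of 8.53. The widths were 3910 and 3894 bp, the E11.5 region covered 99.4% of the E10.5 one, and the summits lay 19 bp apart. This was the highest covered share among the 9 promoters, for which the values ran from 51.3% at Fgfr1 to 99.4%, with a median of 79.8% against 80.9% over all shared promoter regions.

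Around Fgf10 the number of distal regions was near the median of protein-coding genes, and all had lower signals than its promoter. The E10.5 list held 9, with a median signal of 288, and the E11.5 list held 3, each with an E10.5 partner. The numbers stood at the 48.2 and 41.0 percentile of protein-coding genes, for which the median was 9 and 4 distal regions. Of the 9, 3 overlapped an E11.5 region (12.1 to 64.6%). Of all regions 1 to 100 kb from the nearest protein-coding start, 24.2% in the E10.5 list and 87.6% in the E11.5 list overlapped the other list. The strongest distal region of Fgf10 in both lists lay at the 3′ end of the gene, 77.7 kb downstream of the start. It spanned 118791695 to 118792882 (E10.5, signal 3088) and 118791900 to 118792705 (E11.5, signal 1186). The next lay within the gene, 32.0 kb downstream, at 118746227 to 118746879 with 1669 and at 118746447 to 118746884 with 1148, and the summits of the lists were 1 bp apart there. The third shared site lay 17.9 kb downstream, with signals of 288 and 416. All 4 regions upstream of Fgf10 were in the E10.5 list only, with signals from 224 to 489. They lay below the 50th percentile of the list, where 6.90% of all E10.5 regions 1 to 100 kb from a start overlapped. No other protein-coding start lay in the window.

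**Figure D2:**
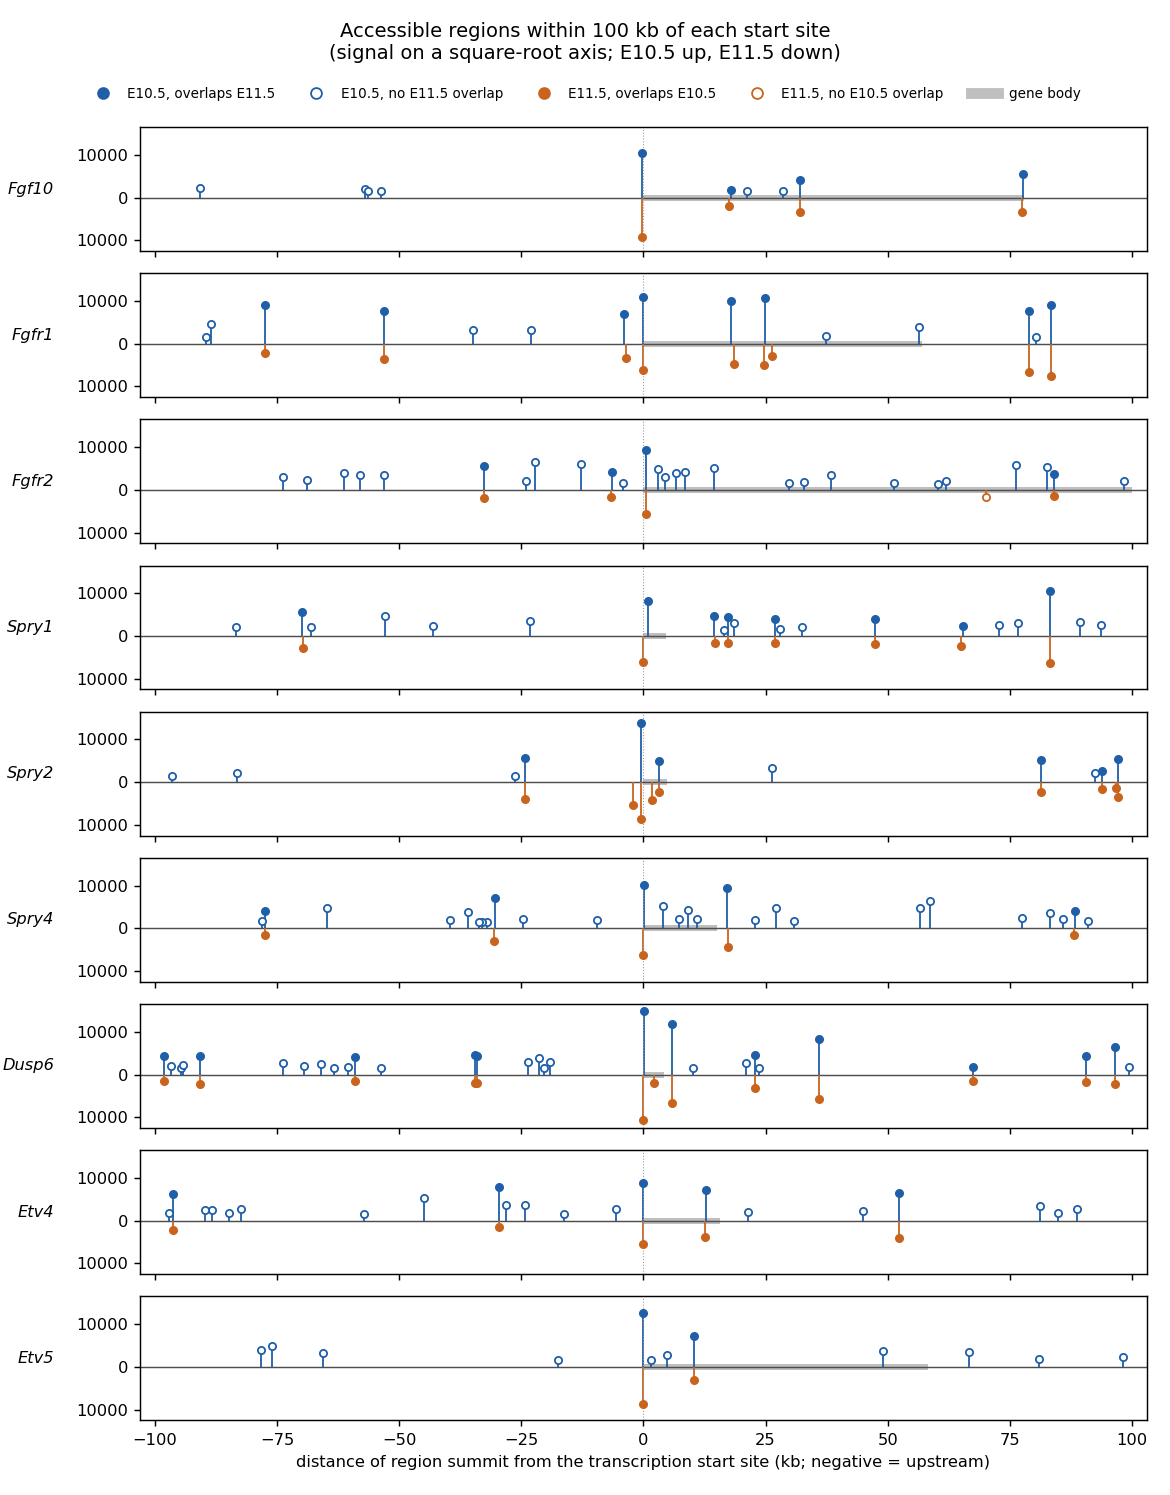
Regions within 100 kb of the start site of each gene, by distance of the summit from the start (horizontal axis, kb, negative upstream) and authors' signal value (vertical, square-root axis), with E10.5 upwards and E11.5 downwards, where filled circles overlap the other list, open circles do not, and the grey bar is the gene body. Every gene but Fgfr1 and Spry2 has more open than filled distal circles in the E10.5 list, and those 2 have equal numbers.

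The 2 receptor genes differed in their surroundings. Fgfr1, the receptor gene of the limb mesenchyme, occupies chromosome 8 from 25518759 to 25575718 (plus strand), and Fgfr2, which the ectoderm uses in its epithelial form, occupies chromosome 7 from 130162451 to 130266808 (minus strand). Around Fgfr1 the E10.5 list held 14 distal regions with a median signal of 3488, and 7 of them overlapped an E11.5 region. Around Fgfr2 it held 26 with a median signal of 1151, and 3 did. Of the 14, 3 lay at the starts of other genes, which Fgfr2 lacks in its window, and without them 5 of 11 overlapped at Fgfr1, with a median signal of 2160. Of all E10.5 regions 1 to 100 kb from the nearest protein-coding start 24.2% overlapped an E11.5 region. The 95% Wilson intervals were 21.3 to 72.0% for 5 of 11 and 4.0 to 29.0% for 3 of 26, so both include that share. Intervals cover counting error only and take neighbouring regions as independent. The share of 24.2% spans regions of all signals. Between the 50th and 90th percentile of signal 1 of 5 at Fgfr1 and 3 of 17 at Fgfr2 overlapped, against 39.7% of all such regions of that band. When only the 37413 E10.5 regions of highest signal were kept, as many as the E11.5 list holds, 5 of 7 at Fgfr1 and 3 of 12 at Fgfr2 overlapped among regions at no other start, against 57.3% of all such regions. Regions of a window are not replicates, and the difference between the genes was not tested.

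At Fgfr1 the promoter region ran from 25518229 to 25521974 in the E10.5 list (signal 12062, rank 1033, −log10 p 13.97) and from 25518403 to 25520323 in the E11.5 list (signal 3771, rank 5075, −log10 p 8.73). The strongest distal E10.5 regions lay within the gene, at 25542622 to 25545529 (24.9 kb downstream of the start, signal 11483, rank 1208) and at 25534966 to 25538597 (17.9 kb, signal 9943, rank 1910). Both had E11.5 partners, with signals of 2492 and 2240, and the first overlapped a further E11.5 region of 796. Upstream, the regions 77.5 and 53.2 kb from the start had E10.5 signals of 8303 and 5714 and E11.5 signals of 490 and 1225, so their order by signal differed between the lists. The strongest distal regions in the E11.5 list were promoters of other genes, at 25601243 to 25603104 at the start of Nsd3 (signal 5552) and at 25596862 to 25597989 at the start of Letm2 (signal 4309). In total 6 distal E10.5 regions of Fgfr1 were above the 90th percentile of the list, of which 2 lay at the Nsd3 and Letm2 starts.

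At Fgfr2 the promoter region spanned the start in the E10.5 list, at 130264778 to 130267105 (signal 8926, rank 2702, −log10 p 12.10). The E11.5 region, at 130264979 to 130266684 (signal 3073, rank 6854, −log10 p 8.04), began 124 bp downstream of the start and covered none of the 300 promoter bases of the RefSeq table, which the E10.5 region covered in full. Every other promoter region of the 9 genes, in both lists, included its start site. The summits lay 452 and 518 bp downstream. The start site is the outer end of the gene, and other starts of Fgfr2 were not used here.

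The strongest distal E10.5 regions of Fgfr2 lacked an E11.5 overlap. They lay upstream at 130288150 to 130290083 (22.2 kb, signal 4314, percentile 87.8) and at 130278054 to 130280036 (12.8 kb, signal 3649, percentile 85.0). The 3 that overlapped had E10.5 signals of 1450, 1681 and 3223, and their E11.5 partners had 230, 297 and 382. Those partners lay 84.0 kb downstream, and 6.6 and 32.6 kb upstream, of the start, and the last, at 130299107 to 130299504, shared its summit base with its E10.5 partner. Fgfr2 also held the single E11.5 region in the windows of the 9 genes that lacked an E10.5 overlap, at 130196486 to 130196733 within the gene, with a signal of 254 and −log10 p of 3.60. All distal E11.5 signals at Fgfr2 were thus low, the highest at percentile 29.2 of the list.

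The 3 Sprouty genes differed in their number of distal regions, and their order in the E10.5 list was reversed in the E11.5 list. Spry2, on chromosome 14 from 105891947 to 105896819 (minus strand), had 10 distal E10.5 and 8 distal E11.5 regions. Spry1, on chromosome 3 from 37639947 to 37644599 (plus strand), had 20 and 7, and Spry4, on chromosome 18 from 38586247 to 38601347 (minus strand), had 26 and 4. Of the E10.5 distal regions 5 of 10 overlapped an E11.5 region at Spry2, 7 of 20 at Spry1 and 4 of 26 at Spry4. Together that was 16 of 56, or 28.6% (18.4 to 41.5%), near the 24.2% of all E10.5 regions 1 to 100 kb from the nearest protein-coding start. The 56 include 1 region at the start of Gm5148, a kind that the 24.2% leaves out. Without it 6 of 19 overlapped at Spry1. The Spry4 number stood at the 93.9 percentile of protein-coding genes in the E10.5 list and at 50.8 in the E11.5 list, and the Spry2 number at 52.7 and 79.1.

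The Spry2 promoter was the second strongest of the 9 in the E10.5 list, at 105894465 to 105899459 (signal 19426, rank 156, −log10 p 14.92). This single region of 4995 bp overlapped 3 E11.5 regions. The middle one, at 105895975 to 105898114 (signal 7579, rank 753, −log10 p 11.35), held the start site and had its summit at the same base, 547 bp upstream. Its neighbours, which count as distal, lay at 105898328 to 105899448 upstream (signal 2939) and at 105894684 to 105895779 within the gene (signal 1718), and they were the strongest distal E11.5 regions of the gene. Another distal E11.5 region lay 3.1 kb downstream of the start (signal 529), with an E10.5 partner of its own (signal 2475). Further away, the strongest distal E10.5 regions were at 105920380 to 105921488 (24.3 kb upstream, signal 3129) and at 105799272 to 105800553 (97.2 kb downstream, signal 3044). Their E11.5 partners had signals of 1504 and, for the second, 1171 and 203 in a pair of regions, with nearest summits 3 and 2 bp from those of E10.5.

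The Spry1 promoter region lay at 37639539 to 37641464 in the E10.5 list (signal 6858, rank 5365, −log10 p 8.95), the lowest signal of the 9, and at 37639572 to 37641179 in the E11.5 list (signal 3701, rank 5241, −log10 p 7.78). Its summits were 979 bp apart, at 955 bp downstream and 24 bp upstream of the start, whereas the other 8 pairs of promoter summits lay within 100 bp of each other. The strongest distal region in both lists was at the start of Gm5148, 83.3 kb downstream, at 37722510 to 37725097 (signal 11164) and 37722553 to 37724777 (signal 3994). The next was 69.9 kb upstream within Spata5, at 37569241 to 37570602 (signal 3171) and 37569710 to 37570413 (signal 720). Between 14.5 and 65.3 kb downstream lay 5 further shared sites, with E10.5 signals of 570 to 2263 and E11.5 signals of 243 to 532.

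The Spry4 promoter region ran from 38599022 to 38602927 in the E10.5 list (signal 10263, rank 1747, −log10 p 11.79) and from 38600551 to 38602865 in the E11.5 list (signal 3916, rank 4769, −log10 p 7.30). The RefSeq start of Arhgap26 lies 0.3 kb from that of Spry4, so the regions belong to both starts, and all upstream regions of Spry4 lie in Arhgap26. The strongest distal region in both lists was 17.2 kb downstream of the start, beyond the end of Spry4, at 38583726 to 38585441 (signal 8771, rank 2844) and at 38583829 to 38584806 (signal 2000, rank 10350). The second was 30.3 kb upstream at 38630849 to 38633011 (signal 5058), with an E11.5 partner at 38631384 to 38632065 (signal 856). Of the 10 distal E10.5 regions between the 50th and 90th percentile, 2 overlapped an E11.5 region, against 39.7% of all such regions of that band.

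**Figure D3:**
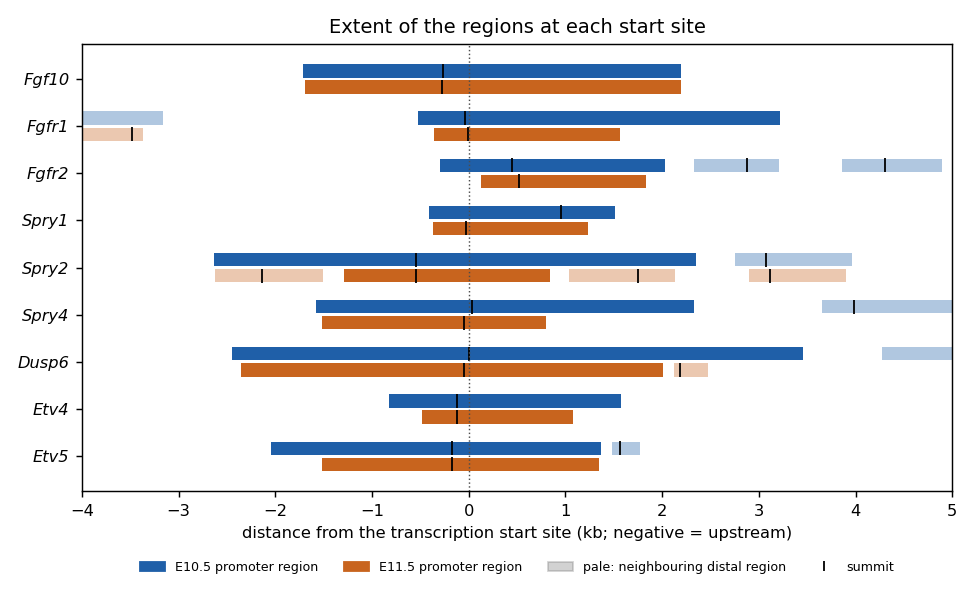
Extent of the regions near each start site, by distance from the start (horizontal axis, kb, negative upstream), with the E10.5 list in blue and the E11.5 list in orange, where pale bars are neighbouring distal regions and black ticks are summits. The Fgf10 bars have almost the same ends, the Spry2 region of the E10.5 list is 3 regions in the E11.5 list, and the E11.5 bar of Fgfr2 begins 124 bp downstream of the start.

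Dusp6, the ERK phosphatase gene, had the promoter region of highest signal of the 9 genes in both lists and, at the settings used here, the most distal regions. By −log10 p the promoter of Etv5 came first in both lists. The lead in distal regions did not hold under 6 alternatives in the E10.5 list, in which Spry4, Fgfr2 or both had more. With 50 kb on either side, for example, the counts were 16 for Spry4, 14 for Fgfr2 and 12 for Dusp6. Etv4 also had more than Dusp6 with 200 kb (52 against 48), and Spry1 with a signal of at least 400 (18 against 17). In the E11.5 list Fgfr1 and Spry2 had more with −log10 p of at least 5 (5 each against 3). With a signal of at least 400 Fgfr1 had more (8 against 6), and Spry2 had 6 as well. Dusp6 occupies chromosome 10 from 99263231 to 99267489 (plus strand). Its promoter region, at 99260778 to 99266686 in the E10.5 list, had a signal of 22288, rank 90 and −log10 p of 15.45. In the E11.5 list it lay at 99260877 to 99265239, with a signal of 11348, rank 119 and −log10 p of 10.35. These regions were 5909 and 4363 bp wide, and a further E11.5 region of 353 bp (signal 436) lay inside the E10.5 one. The summits fell 1 bp downstream and 51 bp upstream of the start, within the sequence printed above.

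Around Dusp6 there were 28 distal E10.5 and 12 distal E11.5 regions, at the 95.7 and 90.8 percentile of protein-coding genes. Of all regions 1 to 100 kb from the nearest protein-coding start, 24.2% in the E10.5 list and 87.6% in the E11.5 list overlapped the other list. Of the 28 at Dusp6, 11 overlapped an E11.5 region (23.6 to 57.6%), and each of the 12 had an E10.5 partner. The strongest was just past the 3′ end of the gene, 5.8 kb downstream of the start, at 99267508 to 99271615 (signal 13925, rank 590, −log10 p 15.55) and at 99268119 to 99270099 (signal 4445, rank 3685, −log10 p 8.63), with both summits at the same base. It was the strongest distal region in the E10.5 windows of the 9 genes. The next was 35.9 kb downstream, at 99298413 to 99299939 (signal 7074) and 99298386 to 99299909 (signal 3193). Of the 11 distal E10.5 regions between the 50th and 90th percentile, 8 overlapped an E11.5 region. The share was 39.7% of all regions of that band that lie 1 to 100 kb from the nearest protein-coding start. A share above it was not particular to Dusp6. In that band 2 of 2 overlapped at Fgf10, 4 of 5 at Spry2, 5 of 10 at Spry1 and 2 of 6 at Etv4. The 6 at Etv4 include the start of Dhx8, a kind of region that the 39.7% leaves out. No other protein-coding start lay in the window of Dusp6.

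The ETS factor genes had 31 distal E10.5 regions between them, of which 5 overlapped an E11.5 region. Etv4 occupies chromosome 11 from 101769747 to 101785310 and Etv5 chromosome 16 from 22381313 to 22439570, both on the minus strand. At Etv4 it was 4 of 20 (8.07 to 41.6%) and at Etv5 1 of 11 (1.62 to 37.7%). Without the region at the start of Dhx8 it was 3 of 19 at Etv4 (5.52 to 37.6%). This interval and that of Etv5 include the 24.2% of all E10.5 regions 1 to 100 kb from the nearest protein-coding start. In the E11.5 list the single distal region of Etv5 placed it at the 20.3 percentile of protein-coding genes, and the 4 of Etv4 placed it at 50.8.

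The Etv5 promoter region lay at 22438204 to 22441620 in the E10.5 list (signal 15915, rank 354) and at 22438227 to 22441084 in the E11.5 list (signal 7567, rank 758). Its −log10 p of 17.18 and 11.74 was the highest of the 9 promoters in each list. The region held both RefSeq starts, and its summits, 1 bp apart, lay 170 and 169 bp upstream of the outer one. The shared distal site lay within the gene, 10.4 kb downstream of the outer start, at 22428561 to 22429809 (signal 5322) and at 22428780 to 22429350 (signal 930). The second strongest E10.5 region, at 22515023 to 22516283 within Dgkg (76.1 kb upstream, signal 2366), had no E11.5 overlap. None of the 5 distal E10.5 regions of Etv5 between the 50th and 90th percentile overlapped an E11.5 region, against 39.7% of all such regions of that band and with an upper bound of 43.4%.

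The Etv4 promoter region lay at 101783739 to 101786134 in the E10.5 list (signal 7722, rank 4029, −log10 p 12.51) and at 101784233 to 101785793 in the E11.5 list (signal 2980, rank 7134, −log10 p 7.47). The summits of both lists were at the same base, 119 bp upstream of the start. In the E10.5 list the strongest distal regions were 29.6 kb upstream at 101814356 to 101816437 (signal 6097) and within the gene, 12.7 kb downstream of the start, at 101771784 to 101773346 (signal 5078). Their E11.5 partners had signals of 239 and, at 101772111 to 101772898, 1394. The strongest distal E11.5 region was the start of Dhx8, 52.4 kb downstream, at 101732635 to 101733378 (signal 1699), where the E10.5 signal was 4169. The upstream site therefore ranked first of the distal sites of Etv4 in the E10.5 list and last of 4 in the E11.5 list.

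**Figure D4:**
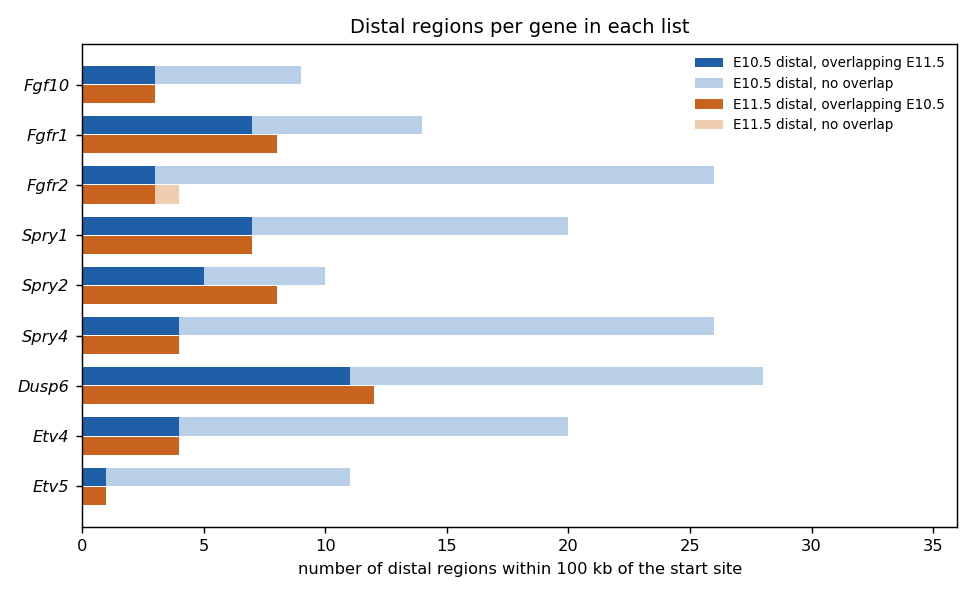
Number of distal regions within 100 kb of each start site (horizontal axis), with the E10.5 list in blue, the E11.5 list in orange, and dark parts for regions that overlap the other list and pale parts for those that do not. Dusp6 has 28 and 12, an order that changes with the window and the threshold, and the single pale E11.5 part belongs to Fgfr2.

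Over the 9 genes there were 164 distal E10.5 regions, of which 78 lay upstream, 34 in the gene body and 52 downstream. An E11.5 overlap was found for 16, 9 and 20 of these, and for 45 in all, which is 27.4% (21.2 to 34.7%). The downstream group held all 5 distal E10.5 regions at starts of other protein-coding genes, of which 4 overlapped. No background by side was computed, and the difference between sides was not tested. Among the 159 that were not at another protein-coding start the share was 25.8% (19.6 to 33.1%), against 24.2% of the 59508 E10.5 regions that lie 1 to 100 kb from the nearest protein-coding start. Of the 51 distal E11.5 regions 50 had an E10.5 partner. Without those at other starts it was 46 of 47, or 97.9% (88.9 to 99.6%), against 87.6% of all such E11.5 regions. With promoter regions included, 54 of 173 E10.5 regions (31.2%) overlapped, against 32.3% of the whole list, and 59 of 60 E11.5 regions (98.3%), against 91.8%.

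Among the distal regions at no other start, overlap followed the E10.5 signal as it did in the whole list. Below the 50th percentile of the list 4 of 78 overlapped, which is 5.13% (2.01 to 12.5%), against 6.90% of all such regions. Between the 50th and 90th percentile 26 of 70 did, which is 37.1% (26.8 to 48.9%), against 39.7%. Above the 90th percentile all 11 did (lower bound 74.1%), against 92.2%. These 11 were 11 of 159, where 5.14% of all such E10.5 regions lie above that percentile. In the E11.5 list the bands from low to high held 28 of 29, 17 of 17 and 1 of 1 with an E10.5 partner, against 84.7%, 92.8% and 99.3%, and 2.93% of all such E11.5 regions lie in the highest band. The E10.5 shares over the 9 genes were thus near the background in each band.

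**Figure D5:**
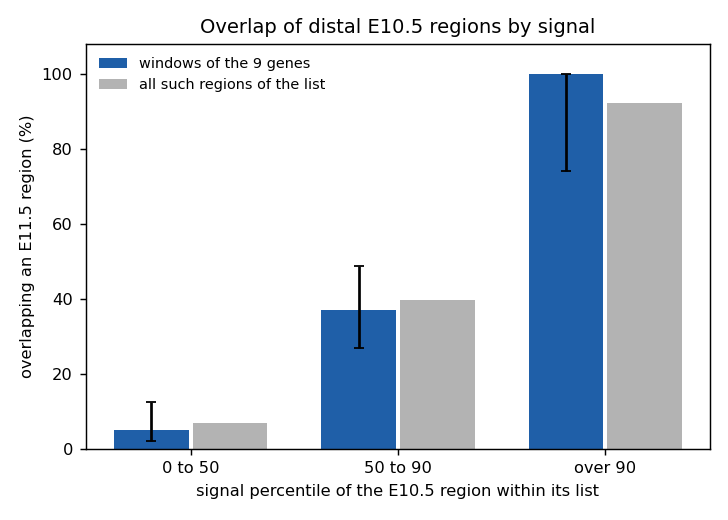
Percentage of distal E10.5 regions that overlap an E11.5 region (vertical axis), by signal percentile of the E10.5 region within its list (horizontal axis), for the windows of the 9 genes (blue, with 95% Wilson intervals) and for all regions of the list 1 to 100 kb from the nearest protein-coding start (grey). The blue bars of 5.13, 37.1 and 100% have intervals that include the grey values of 6.90, 39.7 and 92.2%.

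Promoter regions of the 9 genes were wide. In the E10.5 list 6 of the 9 were at least 3 kb wide, against 6.58% of all promoter regions, and in the E11.5 list 2, those of Fgf10 and Dusp6, against 1.25%. The width of 3 kb was chosen after the values were seen. Because the signal value is a total over the width, the ranks by signal reflect width as well. Ranked by −log10 p, 7 of the 9 were above the 90th percentile in the E10.5 list, against 42.6% of all promoter regions, and 3 in the E11.5 list, against 25.0%. Fgf10 and Spry1 were the 2 that fell short in the E10.5 list, at percentiles 84.0 and 83.5.

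The rest of the FGF pathway was read from lists of 51 genes, of which 50 were located. Of these, 48 had a promoter region in the E10.5 list and 45 in the E11.5 list, to be read beside the 66.3% and 59.9% of all protein-coding genes. All 17 signal transducers, which include the adaptor gene Frs2, had one in both lists, as did the 11 located inhibitors, which include the Spred genes and Dusp7, and all 4 genes of the list of Fgf10 relatives and mesenchymal ligands, which include Fgf7 and Fgf18. Klb, a co-receptor gene of hormone-like FGFs, and Etv2, an ETS factor gene of blood and vessel precursors, had none in either list. Kl, another co-receptor gene, had a promoter region in both lists. Of the receptor and target lists 4 of 5 and 8 of 9 had one in both lists. The remaining 3 genes, Fgf4, Fgf8 and Fgf17, which encode ligands of the apical ridge, had one in the E10.5 list only. That of Fgf4 was at percentile 16.9 of the list and was absent when only the 37413 regions of highest signal were kept, which left 47 of the 50 genes with a promoter region. The same number kept by −log10 p left 42, fewer than the 45 of the E11.5 list.

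The ridge ligand genes Fgf4, Fgf8, Fgf9 and Fgf17 were therefore set beside the 9 genes. Fgf9 alone of the 4 had a promoter region in both lists, where each of the 9 genes had one. The windows of the 4 held 80 distal E10.5 regions, 34 with an E11.5 overlap, where those of the 9 genes held 164 and 45. Some lay at starts of other genes, such as Ccnd1 near Fgf4. Without those it was 20 of 64 (31.2%) for the 4 and 41 of 159 (25.8%) for the 9 genes, against 24.2% of all such regions. The highest promoter signal was 316 at Fgf4, 2637 at Fgf8 and 2170 at Fgf17 in the E10.5 list, below the lowest promoter signal of the 9 genes, 6858, and it was 7023 at Fgf9, above it. The ridge is a narrow strip of the ectoderm, while mesenchyme makes up most of the limb bud. Of 12 ectoderm and ridge markers, a list that holds Fgf8, 10 had a promoter region in the E10.5 list and 6 in the E11.5 list, where 66.3% and 59.9% of all protein-coding genes did. All 8 mesenchyme markers had one in both lists. For endothelium it was 4 and 2 of 6, for muscle precursors 5 and 2 of 5, for nerve and glia 4 and 3 of 4, for blood 2 and 3 of 6, and for other organs 3 and 2 of 6. With the E10.5 list reduced to the E11.5 number by signal, an alternative chosen after the values were seen, the E10.5 counts were 7 for ectoderm and ridge, 2 for endothelium, 3 for muscle precursors, 2 for nerve and glia, 1 for blood and 1 for other organs. The E10.5 list thus had more than the E11.5 list by 1 in 2 of these lists, equalled it in 1 and had fewer in 3. The part of cell composition in these differences was not tested.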

How the data were processed

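ATAC-seq was measured in 4 wild-type limb samples, 2 per stage, grouped by their titles. Per the file headers, the 2 deposited files are narrowPeak lists on mm10, 1 per stage and named for both replicates. The submitters' processing notes name cutadapt, Bowtie2, SAMtools, deepTools and Genrich, without version or setting. The handling of Tn5 cut sites and of replicates is not given in the sources used here. The deposited signal value is a total over the peak, and none is below 200. The deposited score is signal per bp times 1000, capped at 1000, in 100% of peaks (within 1 unit), and was not used. The −log10 p-value of each peak is used as deposited. The q-value column holds -1 throughout.

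The 99427 and 37548 peaks were reduced to chromosomes 1 to 19, X and Y. Gene ends came from a RefSeq table of GRCm38.p6. Strand came from its promoter table or, by symbol, from GENCODE M1, for 21536 of 21887 protein-coding genes, and GENCODE M1 coordinates, which are of another build, were not used. Exons and introns on mm10 were not used here. Overlap means at least 1 bp. Depth is unknown, so precision is given only as 95% Wilson intervals. Overlap code was tested on simulated data. Analyses used Python 3.11.15, pandas 2.3.3 and SciPy 1.17.1.

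The 9 genes, the pathway and marker lists and the rule for naming regions were chosen with earlier results of these data known. The rule names all 9 genes, their promoter regions, the 2 distal regions per gene and list with the highest signal, E11.5 regions lacking an E10.5 overlap, distal E10.5 regions above the 90th percentile lacking an E11.5 overlap (there were none), and list genes without a promoter region. The alternatives tried are given at the end.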

Additional observations from a re-analysis of the deposited data

How the results depend on the processing

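No paired analysis was possible because the replicates of a stage were deposited as 1 list, and leaving out a replicate was likewise not possible. Over 14 alternative settings, all 9 genes kept a promoter region in both lists wherever this was recomputed. A count was taken to hold within 1.5 times its value, a share within its 95% interval and a median percentile within 10 points. By that measure 23 values of the main results moved and the others held, and of single genes 184 values held and 104 moved.

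Numbers of regions followed the window and the threshold by construction. The E10.5 list held 173 as reported, 89 with 50 kb, 315 with 200 kb, 100 with −log10 p of at least 5, 77 at matched number by signal and 68 at matched number by −log10 p. The E11.5 list held 60 as reported, 36, 95 and 30 under the first 3 of these. The share of E10.5 regions with an E11.5 overlap was 31.2% as reported, 64.9% when matched in number by signal, 66.2% when matched by −log10 p, and 18.5% with 50% reciprocal overlap. For distal regions it was 27.4%, and then 60.3%, 61% and 14.6%, and it was 18.7% with −log10 p of at least 5. At matched number by signal 57.3% of all regions 1 to 100 kb from the nearest protein-coding start overlapped. That share leaves out regions at gene starts, whereas the 60.3% includes distal regions at the starts of other genes. The E11.5 share was 98.3% as reported, 100% with 50 kb, 83.3% at matched number by −log10 p, 53.3% with reciprocal overlap and 73.3% with summits within 100 bp. The median percentile of distal regions moved from 51.4 to 38.2 at matched number by signal (E10.5) and from 40.9 to 54.2 with 50 kb (E11.5). For E11.5 promoter regions it moved from 87.3 to 76.2 with −log10 p of at least 5 and to 75.3 when ranked by signal per bp. At −log10 p of at least 5 Fgfr2 had no distal E11.5 region. The cause of these shifts was not tested beyond their construction.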

Other observations

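Windows of 500 kb on either side, chosen after the data were seen, show where the strongest distal sites lie beyond the 100 kb used above. Fgf10 had 21 E10.5 and 11 E11.5 regions, at the 19.1 and 20.7 percentile of protein-coding genes, for which the medians were 53 and 21. The other 8 genes had 40 to 110 E10.5 and 12 to 41 E11.5 regions. The strongest distal region of Fgf10 in both lists was the start of Mrps30, 327.4 kb upstream, with a signal of 3341 in the E10.5 list and 5480 in the E11.5 list. For Spry2 the strongest lay 164.3 kb downstream, at no protein-coding start, at 105732073 to 105734003 on chromosome 14 (signal 8746) and at 105732118 to 105733961 (signal 3800). For Spry4 it lay 391.8 kb upstream, also at no protein-coding start, at 38992110 to 38994544 on chromosome 18 (signal 9917) with an E11.5 partner at 38992381 to 38994147 (signal 5460). For Fgfr2 the strongest E10.5 region was 425.8 kb upstream at 130691578 to 130694291 on chromosome 7 (signal 12084) and overlapped an E11.5 region. For Fgfr1 and Dusp6 the strongest distal E10.5 region stayed the one within 100 kb. Such distances leave the gene that a region serves unknown.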
